A study of Drosophila melanogaster with 7 samples.

Results

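Sox21a, Sox100B, klumpfuss (klu) and headcase (hdc) are 4 genes known from the progenitor cells of the adult Drosophila midgut. They were taken by symbol from the deposited table of 17481 genes, and all 4 were found, 1 row each. The midgut epithelium is kept up by intestinal stem cells, which divide to give enteroblasts, the precursors of absorptive enterocytes, and the precursors of hormone-secreting enteroendocrine cells. Sox21a and Sox100B encode HMG-box transcription factors. Sox21a is required in enteroblasts for differentiation, and Sox100B, the fly relative of mammalian Sox9, acts in stem cells and enteroblasts. The zinc-finger repressor encoded by klu, related to mammalian WT1, is known as a Notch target that marks enteroblasts and holds back enteroendocrine fate. The hdc product is a cytoplasmic protein of imaginal and progenitor cells that also acts in the branching of the trachea. It binds the protein encoded by unkempt (unk).

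RNA was amplified and sequenced from GFP-labelled cells sorted from midguts of adult flies at day 2, about 10000 cells a sample; the protocol calls the cells intestinal stem cells and the series title calls them progenitors. The groups were 3 libraries of wild-type flies (Ctrl) and 4 libraries of flies overexpressing Sc (ScOE), the proneural transcription factor encoded by scute (sc). The labels used here give neither the driver and transgene nor the GFP line, and they do not say whether libraries came from separate flies or days, so p-values measure the spread between these libraries, which may be partly technical. The comparison was that of ScOE with Ctrl.

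Levels are in FPKM, a fragment count per transcript length and per library size. Absolute depth is unknown, but the commonest ratio among the lowest values put the Ctrl libraries at 0.448 to 0.602 of the depth of ScOE 3 and the other ScOE libraries at 0.857 to 1.04 of it. The level of sc was 0.886 to 2.44 FPKM in Ctrl and 66.0 to 190 FPKM in ScOE, so it followed the labels in all 7 libraries. The 6 progenitor markers summed to 381 to 588 FPKM in Ctrl and 411 to 471 FPKM in ScOE, and none was at 0. Of these, spdo and Su(H) were higher in ScOE and esg, mira, Dl and N did not pass; esg lay between 213 and 362 FPKM, mira between 65.8 and 97.0 FPKM and Dl between 11.8 and 50.7 FPKM over all 7 libraries. Libraries differed in the markers of other cells. The 12 enterocyte markers summed to 1014, 4209 and 26868 FPKM in Ctrl 1, 2 and 3 and to 545 to 8973 FPKM in ScOE. The 10 enteroendocrine markers summed to 88.9 to 969 FPKM in Ctrl and to 2747 to 8152 FPKM in ScOE. The 10 visceral muscle markers summed to 176 FPKM in ScOE 3 and to 7.42 to 24.3 FPKM in the other 6 libraries. No fat body marker of 7 rose above 1 FPKM in any library.

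The 4 genes divided into a pair that fell and a pair that did not pass the test. Sox21a and Sox100B were lower in every ScOE library than in any Ctrl library. The levels of klu and hdc overlapped between the groups. Of the 8421 genes that reached 1 FPKM in 3 or more libraries and were tested, 39.0% passed at an adjusted p under 0.05 in limma, 21.3% as lower and 17.6% as higher in ScOE, so a fall was common and 2 of 4 is read against that share. A fall of at least 1 on the log2 scale that passed, as in both Sox genes, was seen in 7.89% of tested genes. The groups did not overlap in 46.3% of tested genes, with ScOE below Ctrl in 25.9% and above it in 20.3%. Each library is a bulk sample, so fewer cells that express a gene and less RNA of it per cell cannot be told apart here for any of the 4 genes.

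**Figure D1:**
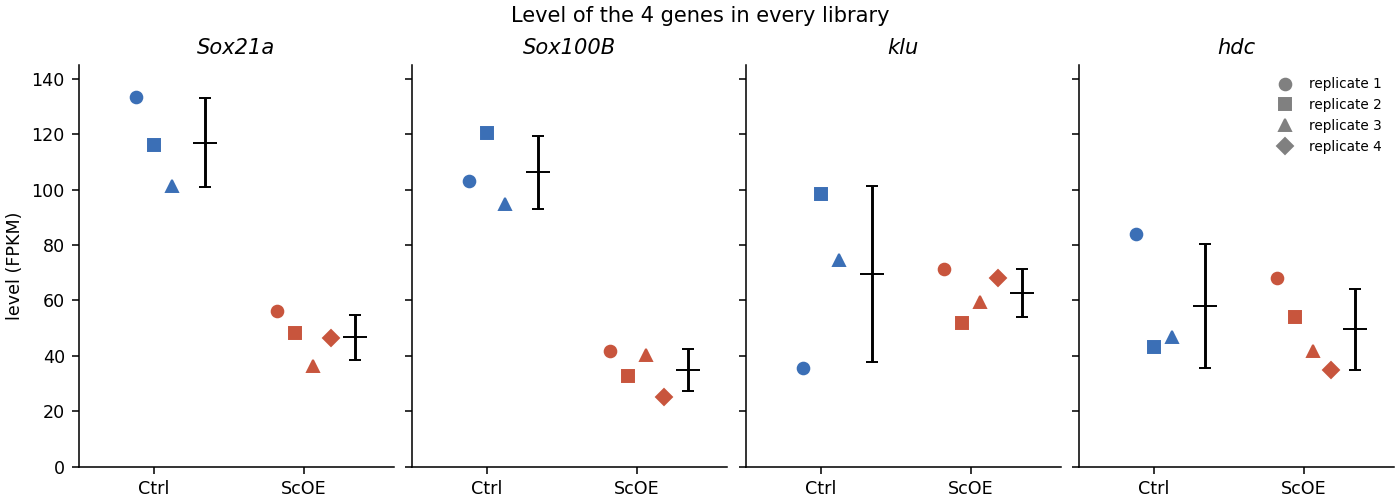
Level in FPKM (linear axis from 0) of each of the 4 genes in the 3 Ctrl (blue) and 4 ScOE (red) libraries, with the mean and SD in black beside each group. The ScOE points of Sox21a (36.4 to 56.2) and Sox100B (25.3 to 41.6) all lie below the Ctrl points, while for klu and hdc the groups overlap and Ctrl 1 is the lowest and the highest library respectively.

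The Sox21a gene (FBgn0036411) lies on BDGP6 chromosome 3L, 14103481 to 14108118, minus strand. Its level was 133, 116 and 101 FPKM in Ctrl 1 to 3 and 56.2, 48.1, 36.4 and 46.4 FPKM in ScOE 1 to 4. The highest ScOE library was thus well below the lowest Ctrl library. The difference, ScOE minus Ctrl in log2(FPKM + 1), came to -1.31 ± 0.17 (SE, 3 and 4 libraries), with a 95% interval from -1.72 to -0.91 and an adjusted p of 0.00122 in limma. Among the tested genes 469, or 5.57%, had a log2 fold change at least as low. By level Sox21a stood between the 86.6th and 89.9th percentile of tested genes in the Ctrl libraries and between the 73.7th and 81.5th in the ScOE libraries.

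Sox100B (FBgn0024288) is on chromosome 3R, 31065253 to 31083407, plus strand, with 1 annotated transcript of 3 exons. It was at 103, 121 and 94.9 FPKM in the Ctrl libraries and at 41.6, 32.8, 40.3 and 25.3 FPKM in the ScOE libraries. Here too the groups were apart, and ScOE 4 was the lowest library. Its log2 fold change was -1.59 ± 0.19 (SE, n = 3 and 4; 95% interval -2.05 to -1.14; adjusted p of 0.000867 in limma), and 283 tested genes, 3.36%, had one at least as low. The percentile of its level went from 85.9 to 89.2 in Ctrl down to 66.0 to 76.2 in ScOE.

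For both Sox genes the exact permutation p (two-sided, over libraries) was 0.0286, the smallest that 3 against 4 allows. It follows largely from the lack of overlap, seen in 46.3% of tested genes, and is no separate support. The size of the falls depended on how the libraries were scaled to each other. With upper quartile, trimmed-mean and quantile scaling Sox21a was at -1.25, -1.23 and -1.09 (log2). Under the same scalings Sox100B was at -1.53, -1.52 and -1.38, and both genes passed each time. The single highest gene of a library held 22.9 to 29.5% of the FPKM total in Ctrl and 12.4 to 21.7% in ScOE. The deposited FPKM totals were 1924963 to 2614335 in Ctrl and 1059344 to 1382537 in ScOE, and when these were made equal the median over tested genes went from -0.08 to 0.68 (log2). Sox21a was then at -0.45 and did not pass (adjusted p of 0.131 in limma), while Sox100B was at -0.74 and passed (adjusted p of 0.0291). Set against the median of all genes, the fold change was -1.13 for Sox21a and -1.42 for Sox100B at equal totals, and -1.23 and -1.52 as deposited. Some markers of other cells also differed between the groups. The marker counts here are for the deposited values only, where 21.3% of all tested genes fell and 17.6% rose. Of the 10 enteroendocrine markers 9 were higher in ScOE and 1 did not pass, and none was at 0 throughout. All 6 neuronal markers were higher, summing to 8.34 to 8.75 FPKM in Ctrl and 68.1 to 86.3 FPKM in ScOE. Of 6 glial markers 3 were tested and lower, with a sum of 520 to 692 FPKM in Ctrl and 235 to 291 FPKM in ScOE, while the defining markers repo, alrm and wrapper stayed below 1 FPKM. Of 9 hemocyte markers 2 were tested and lower, with a sum of 91.6 to 139 and 47.7 to 59.9 FPKM, and 6, Hml among them, stayed below 1 FPKM. Of the 5 matched copper cell and Malpighian tubule markers, which summed to 13.03 to 22.2 FPKM in Ctrl and 38.6 to 60.3 FPKM in ScOE, Ptx1 was higher, 2 did not pass and 2 were not tested. Of the 12 enterocyte markers Myo31DF and Jon99Fii were lower and 10 did not pass, which is near the background. Of 10 visceral muscle markers 2 were tested and neither passed. The part of these cells in the falls was not tested.

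**Figure D2:**
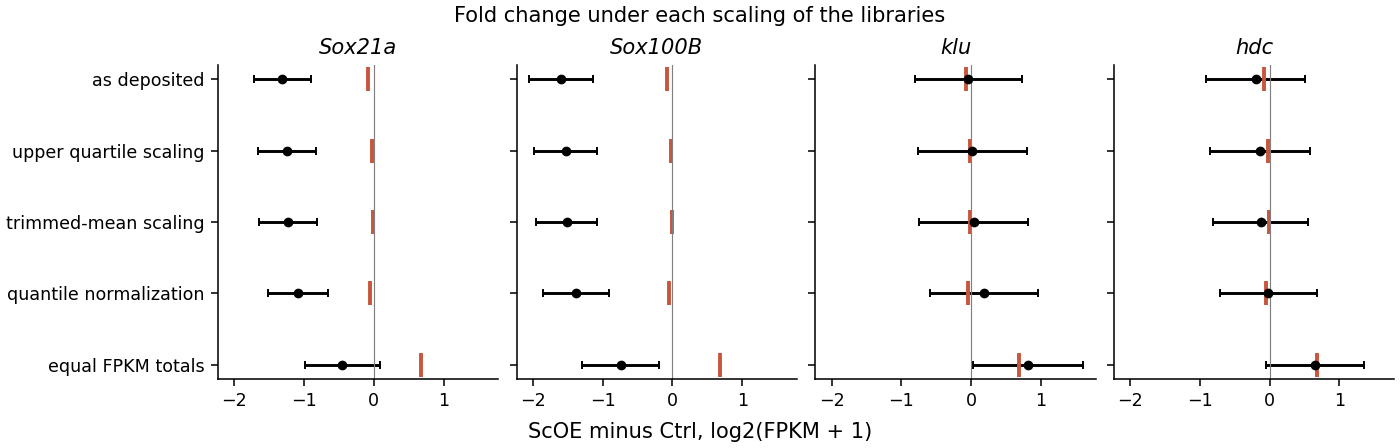
Log2 fold change (ScOE minus Ctrl, log2(FPKM + 1)) of each gene with its 95% interval from limma, under the deposited values and 4 other scalings; the red bar is the median of all tested genes under that scaling. Sox21a and Sox100B lie left of the median under each of the 5 scalings, and at equal FPKM totals the whole picture moves right, so that the interval of Sox21a includes 0.

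For klu (FBgn0013469, chromosome 3L, 10981171 to 11009188, minus strand) the levels were 35.7, 98.6 and 74.5 FPKM in Ctrl and 71.5, 51.9, 59.3 and 68.0 FPKM in ScOE. The ScOE values all fell inside the range of the Ctrl values, which was set by Ctrl 1 at the bottom and Ctrl 2 at the top. The log2 fold change was -0.04 ± 0.33 (SE, n = 3 and 4), with an adjusted p of 0.929 in limma. Its 95% interval ran from -0.81 to 0.73, which does not show that the level was the same. The spread was unequal, with a coefficient of variation of 45.6% in Ctrl and 14.1% in ScOE. The direction hung on single libraries: the value was -0.46 without Ctrl 1 (adjusted p of 0.0964 in limma), 0.26 without Ctrl 2, 0.06 without Ctrl 3 and 0.04 without ScOE 2. With weights estimated for each library it was -0.62 and passed (adjusted p of 0.0329).

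The hdc gene (FBgn0010113) spans 94451 bases of chromosome 3R, 30277932 to 30372382, plus strand, and has 4 annotated transcripts. Its level was 84.0, 43.2 and 46.8 FPKM in Ctrl and 68.0, 53.9, 41.7 and 34.8 FPKM in ScOE. The highest library of each group was the one numbered 1, and the groups overlapped over most of their range. The log2 fold change of hdc was -0.20 ± 0.30 (SE, n = 3 and 4), the 95% interval ran from -0.91 to 0.51, and the adjusted p was 0.637 in limma. Without Ctrl 1 the value was 0.09. Ctrl 1 and ScOE 1 also had the lowest summed enterocyte markers of their groups, 1014 and 545 FPKM, and the lowest summed enteroendocrine markers, 88.9 and 2747 FPKM. Ctrl 1 is the library in which klu was lowest, too, and the part of those cells in the klu and hdc levels was not tested. Most markers of the trachea, where hdc is also known to act, were low. Of 8 tracheal markers 6 (trh, vvl, serp, verm, Gasp and pio) stayed below 1 FPKM in every library. The list summed to 5.08 to 24.6 FPKM in Ctrl and 1.68 to 7.33 FPKM in ScOE, 1 of its 2 tested genes, btl, being lower. The other, dys, was at 0.303, 16.6 and 20.7 FPKM in Ctrl and at 0.192 to 4.73 FPKM in ScOE. It did not pass, and it made up most of the sum in Ctrl 2 and Ctrl 3.

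FPKM is scaled by length, so levels of the 4 genes can be set beside each other, though unequal amplification of the RNA is not corrected. The order between genes is thus less certain than a change in their ratio between the groups. In Ctrl the order of the mean levels was Sox21a at 117 ± 16.2, Sox100B at 106 ± 13.1, klu at 69.6 ± 31.7 and hdc at 58.0 ± 22.6 FPKM (SD, n = 3). In ScOE it was klu at 62.7 ± 8.84, hdc at 49.6 ± 14.6, Sox21a at 46.8 ± 8.13 and Sox100B at 34.99 ± 7.54 FPKM (SD, n = 4). Both Sox genes stood above klu and above hdc in each of the 3 Ctrl libraries. In ScOE both were below klu in all 4 libraries, Sox100B was below hdc in all 4 and Sox21a in 3 of 4. The neighbours Sox21a and Sox100B in both groups, klu and hdc in both groups, and hdc and Sox21a in ScOE changed places from library to library.

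Ratios between 2 genes of the same library hardly depend on how libraries are scaled, so differences between the group means were tested on them. The ratio of klu to Sox100B, in FPKM, was 0.346, 0.817 and 0.785 in Ctrl and 1.72, 1.58, 1.47 and 2.69 in ScOE. That of klu to Sox21a was 0.267, 0.848 and 0.736 in Ctrl and 1.27, 1.08, 1.63 and 1.47 in ScOE. Neither ratio overlapped between the groups, and each crossed from below 1 in all Ctrl libraries to above 1 in all ScOE libraries. As log2 ratios of FPKM + 1, Sox100B to klu moved by -1.55 ± 0.40 (SE), Sox100B to hdc by -1.39 ± 0.34, Sox21a to klu by -1.27 ± 0.46 and Sox21a to hdc by -1.11 ± 0.26, ScOE minus Ctrl. Each of these 4 gave p = 0.0286 in an exact two-sided permutation test, the smallest possible, and 0.0429 after Benjamini-Hochberg adjustment over the 6 pairs compared. With 4 of 6 ratios at the smallest p, the adjusted value is fixed by their number, whatever their size. The 4 ratios share the same Sox genes, klu and hdc, so they are not separate results.

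Within the pairs no difference passed. The ratio of Sox21a to Sox100B was 1.29, 0.964 and 1.07 in Ctrl and 1.35, 1.47, 0.904 and 1.83 in ScOE. On the log2 scale it moved by 0.28 ± 0.27 (SE, exact permutation p = 0.314, 0.377 adjusted), so a difference between the 2 falls was not detectable in these libraries. The log2 ratio of klu to hdc moved by 0.16 ± 0.66 (exact permutation p = 0.886, also after adjustment). That pair stood furthest apart in Ctrl 1 in one direction, with klu at 0.425 of hdc, and in Ctrl 2 in the other, with klu at 2.28 times hdc.

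Against esg, the snail-family factor that marks stem cells and enteroblasts, the ratios of both Sox genes were lower in every ScOE library than in any Ctrl library. The esg level was 362, 314 and 230 FPKM in Ctrl and 254, 249, 213 and 226 FPKM in ScOE and did not pass (log2 -0.34, adjusted p of 0.16 in limma). Under 2 of 21 alternatives esg did pass as lower, 1 of them without Ctrl 3 (-0.52, adjusted p of 0.0327 in limma). Sox21a was at 0.369, 0.371 and 0.439 of esg in Ctrl and at 0.222, 0.194, 0.171 and 0.205 of it in ScOE. Sox100B was at 0.285, 0.385 and 0.412 of esg in Ctrl and at 0.164, 0.132, 0.189 and 0.112 in ScOE. The log2 ratios moved by -0.97 ± 0.11 for Sox21a and by -1.26 ± 0.24 for Sox100B (SE), each with an exact permutation p of 0.0286, which became 0.0571 over the 4 genes. With 2 of 4 ratios at the smallest p of this design the adjusted value cannot be lower, whatever their size. The ratios of klu and hdc to esg moved by 0.29 ± 0.48 and 0.14 ± 0.27 (exact permutation p = 0.743 and 0.629). With mira in place of esg the Sox ratios moved by -1.30 and -1.58.

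**Figure D3:**
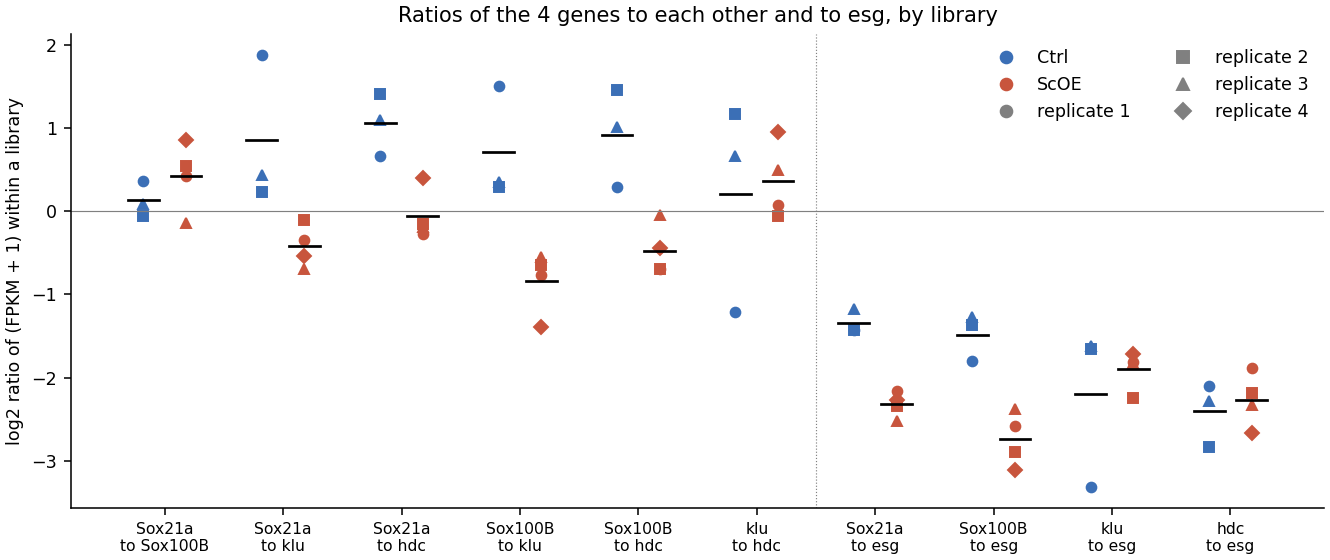
Log2 ratio of (FPKM + 1) within each library for the 6 pairs of genes (left of the dotted line) and for each gene to esg (right), with Ctrl in blue, ScOE in red and the group mean as a black bar. The 4 ratios of a Sox gene to klu or hdc, and those of both Sox genes to esg, do not overlap between the groups; Sox21a to Sox100B and klu to hdc overlap, and Ctrl 1 stands far from Ctrl 2 and 3 in each ratio that includes klu.

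Of the 8 Sox genes on the list used here, 3 reached the filter. Besides the 2 above this was Sox14, which is known for its part in the response to the steroid ecdysone, at 14.9, 12.7 and 10.9 FPKM in Ctrl and 12.4, 10.04, 10.3 and 7.12 FPKM in ScOE. It did not pass (log2 -0.35 ± 0.19, adjusted p of 0.2 in limma). The other 5 were not tested. Sox21b, SoxN, D and Sox15 lay between 0 and 0.237 FPKM over all libraries, and Sox102F was listed at 0 in Ctrl and at 0.0262 to 0.0436 FPKM in ScOE. Sox21a and Sox100B thus had the highest levels of the listed Sox genes in each library.

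The genes next to the 4 did not follow them in a common way. Sox21b, 4286 bases from Sox21a on the same strand, and Fbp1 on its other side stayed at or below 0.167 FPKM. On the 2 sides of Sox100B, dco, the gene of a casein kinase, went from 36.8 to 41.7 FPKM in Ctrl to 51.0 to 60.5 FPKM in ScOE (log2 0.50 ± 0.11, adjusted p of 0.0109 in limma). CG11317, 7304 bases from Sox100B on the opposite strand, was at 0.721, 0.792 and 0.767 FPKM in Ctrl and at 17.2, 30.1, 22.3 and 22.9 FPKM in ScOE (log2 3.75 ± 0.18), so both neighbours of the falling gene rose. The non-coding RNA CR45745, 2868 bases from klu, fell from 10.2 to 11.04 FPKM in Ctrl to 1.503 to 5.47 FPKM in ScOE (log2 -1.42 ± 0.33, adjusted p of 0.0129), a call that was lost at equal FPKM totals, and Fad2 on the other side stayed at or below 0.243 FPKM.

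Within hdc the annotation places 2 genes on the opposite strand. CR46114, which shares exon sequence with hdc, was listed at or near 0 in all 7 libraries. CG34300, in an intron, did not exceed 1.803 FPKM. The sources used here do not state whether reads were assigned by strand, so reads of hdc and of these genes cannot be told apart where they overlap. Outside hdc, the ferritin heavy chain gene Fer1HCH was at 846 to 1076 FPKM in Ctrl and 667 to 957 FPKM in ScOE (adjusted p of 0.166), and CR46113 was listed at 0.

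To place the 4 genes among others, the 3 genes with the closest levels over the 7 libraries were taken for each by Pearson correlation of log2(FPKM + 1), among 6390 other genes with a mean of at least 5 FPKM. For Sox21a these were CG10616, the cytochrome P450 gene Cyp6a13 and the non-coding RNA CR44898 (r of 0.994 to 0.996). Inside the groups, after removing the group means, r was 0.943 to 0.953. The genes were picked on these same 7 libraries, so a high r inside the groups follows in part from that choice. For Sox100B they were Lrch, the mitochondrial ribosomal protein gene mRpS11 and the actin capping protein gene cpa (r of 0.995, and 0.928 to 0.947 inside the groups).

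The genes most like klu were Hnf4, a nuclear receptor gene, pkaap and Lnk, the gene of an adaptor of insulin signalling (r of 0.978 to 0.985). Hnf4 was at 14.0, 40.8 and 28.7 FPKM in Ctrl and at 21.0 to 29.7 FPKM in ScOE, with Ctrl 1 lowest as for klu. For hdc they were CHORD, the co-repressor gene CtBP and the calcineurin regulator gene sra (r of 0.977 to 0.98), all with Ctrl 1 highest. Without Ctrl 1 the correlations were 0.965 to 0.994 for klu and 0.951 to 0.97 for hdc. The genes have the highest of 6390 correlations over 7 libraries each, and these values are given as a description. Values without Ctrl 1 come from the same libraries and are no separate test. Among the 4 genes themselves r over the 7 libraries was 0.923 for Sox21a with Sox100B, a pair that shares the fall between groups. It was -0.62 for klu with hdc, and Ctrl 1 was both the lowest library for klu and the highest for hdc. Neither r was computed inside the groups or without Ctrl 1. They do not show that either pair varied together, or oppositely, from library to library.

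**Figure D4:**
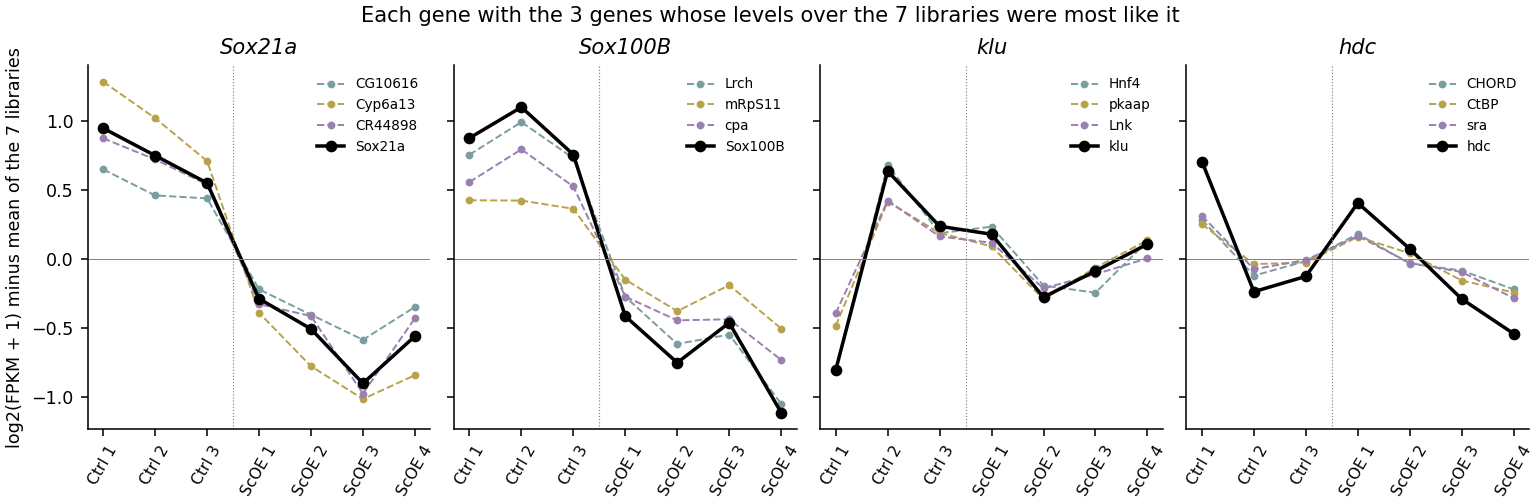
Log2(FPKM + 1) minus the mean of the 7 libraries for each of the 4 genes (black) and the 3 genes most like it (coloured), by library, with a dotted line between Ctrl and ScOE; lines only join the points of a gene. Sox21a, Sox100B and the genes like them step down between the groups, whereas klu and its like genes are lowest in Ctrl 1 and hdc and its like genes are highest there.

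Other genes of progenitors moved in both directions. Of 19 tested genes on a progenitor list, 9 fell, 3 rose and 7 did not pass. As 21.3% of all tested genes fell and 17.6% rose, the 3 of 19 that rose are near the background. The median log2 fold change of the list was -0.39 beside -0.08 for all tested genes. At equal FPKM totals 4 fell and 7 rose, with a median of 0.45 beside 0.68, while of all tested genes 3.33% fell and 52.9% rose. Among those that fell with the Sox genes were the Notch target E(spl)mbeta-HLH, at 836 to 1060 FPKM in Ctrl and 262 to 348 FPKM in ScOE, the Bearded family gene E(spl)malpha-BFM, at 3821 to 3971 and 1042 to 1509 FPKM, and the Myc gene dm, at 474 to 517 and 116 to 172 FPKM. Those that rose were sna, spdo and Su(H), the gene of the DNA-binding partner of Notch, which went from 3.67 to 4.74 FPKM in Ctrl to 8.01 to 8.84 FPKM in ScOE (log2 0.86 ± 0.12). For the receptor Notch, N levels were 106, 55.4 and 59.6 FPKM in Ctrl and 49.6 to 57.9 FPKM in ScOE, and for its ligand Delta, Dl levels were 40.4, 11.8 and 12.5 FPKM in Ctrl and 31.3 to 50.7 FPKM in ScOE. Neither passed (adjusted p of 0.198 and 0.0741 in limma), Ctrl 1 was the highest Ctrl library for both, and without it Dl passed (log2 1.68, adjusted p of 0.00242).

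JAK/STAT and JNK signalling are known to act upstream of Sox21a in stressed guts. Of 11 tested genes of the 2 pathways 8 fell, none rose and 3 did not pass, the median of the list being -1.20 (log2), where 21.3% of all tested genes fell and 17.6% rose. With upper quartile scaling 7 fell and none rose, and with trimmed-mean scaling or quantile normalization 7 fell and 1 rose. At equal FPKM totals 3 fell and 3 rose, beside 3.33% and 52.9% of all tested genes. Of the 8 that fell as deposited, dome and Stat92E were also counted as falling on the progenitor list, so the 2 lists are not separate. The cytokine gene upd3 was at 224, 148 and 151 FPKM in Ctrl and at 10.1 to 14.4 FPKM in ScOE (log2 -3.69 ± 0.20). Levels of Socs36E, a feedback target of JAK/STAT, were 719 to 884 and 266 to 345 FPKM (log2 -1.34 ± 0.14), and those of puc, a JNK phosphatase and target, were 260 to 309 and 95.4 to 120 FPKM (log2 -1.40 ± 0.12). The call of Socs36E was lost at equal FPKM totals.

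In larval neural stem cells klu is known to act in self-renewal beside factors such as dpn and E(spl)mgamma-HLH. A list of 10 neural stem cell genes held such factors and also pros, brat and erm, which are known to limit self-renewal. Of these 10 genes 7 were tested, 6 rose, pros and brat among them, and N, which the progenitor list also holds, did not pass. Of all tested genes 17.6% rose. E(spl)mgamma-HLH went from 6.58 to 7.93 FPKM in Ctrl to 512 to 647 FPKM in ScOE, pros, a marker of enteroendocrine cells, from 1.19 to 2.18 to 43.1 to 60.9 FPKM, and ase, listed at 0 in all Ctrl libraries, was at 8.40 to 13.5 FPKM in ScOE. The zinc-finger gene sr, grh and erm were not tested and stayed below 1 FPKM in every library. The counts on this list were the same under each of the 4 other scalings, though at equal FPKM totals 52.9% of all tested genes rose.

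The partner of the hdc product, unk, had levels of 28.8, 43.1 and 39.7 FPKM in Ctrl and 42.01, 35.2, 32.8 and 32.4 FPKM in ScOE, and the groups overlapped as they did for hdc. Both proteins are known to bind components of the TOR complex, the nutrient-sensing kinase. On a list of unk and 11 TOR pathway genes 3 fell, none rose and 9 did not pass, and the list's median was -0.17 (log2). Set against the 21.3% of all tested genes that fell, 3 of 12 is near the background. With quantile normalization 2 fell, and 1 rose with upper quartile and 2 with trimmed-mean scaling. Those that fell were Thor, the gene of a translation repressor, at 1216 to 1876 FPKM in Ctrl and 458 to 739 FPKM in ScOE, Rheb, at 113 to 147 and 75.7 to 93.2 FPKM, and the gene listed as CG13624 (REPTOR), at 75.3 to 109 and 40.4 to 59.7 FPKM. None of these 3 calls held at equal FPKM totals, where 7 of the 12 genes rose, also near the 52.9% of all tested genes. Rheb also did not pass with quantile normalization (-0.33) or without both libraries numbered 1 (-0.46).

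**Figure D5:**
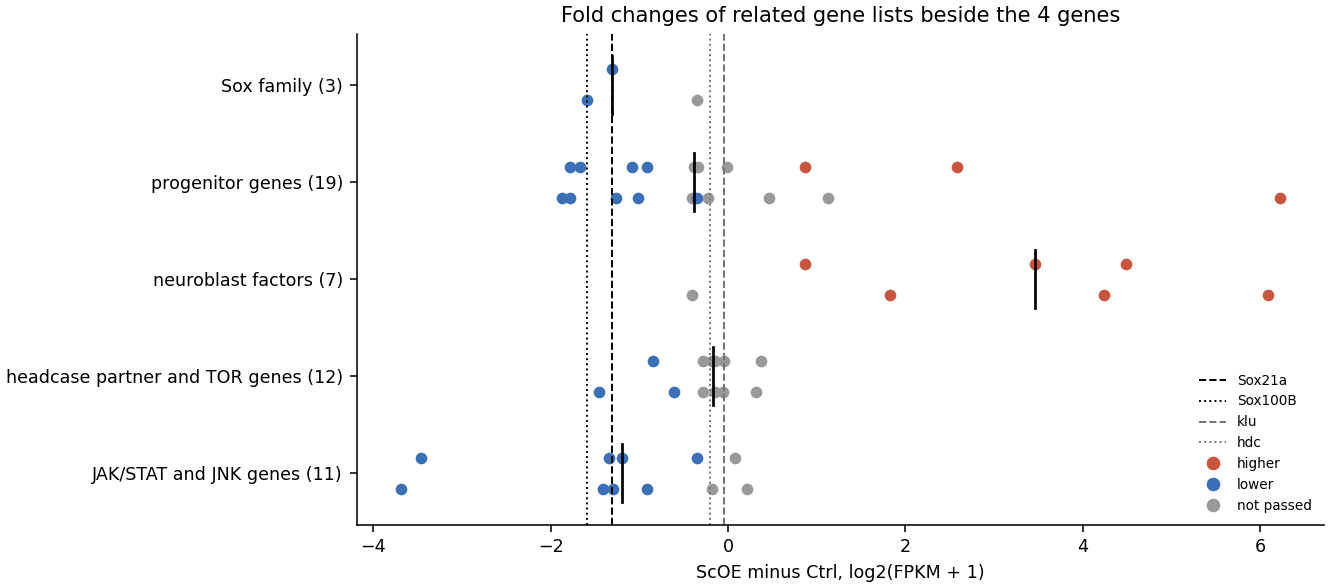
Log2 fold change (ScOE minus Ctrl, log2(FPKM + 1)) of the tested genes on each list, coloured by call, with the number tested in brackets, the list median as a black bar and the 4 genes as vertical lines; points are offset vertically only for legibility. The Sox genes lie among the falling genes of the progenitor and JAK/STAT and JNK lists, and klu and hdc lie near 0 while 6 of 7 neuroblast factors are to the right.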

How the data were processed

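Per the submitters' processing notes, reads were processed with TopHat2 2.0.10 and Cufflinks 2.2.1 on BDGP6, and per the labels' protocols RNA was amplified before library construction. The deposited unit is FPKM, computed by the authors, in 1 table of 7 libraries; scaling between libraries and strand assignment are not given in the sources used here. Gene positions are from an Ensembl BDGP6 annotation, 1-based.

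Fold changes are ScOE minus Ctrl on log2(FPKM + 1), tested two-sided with limma 3.58.1 (trended prior, R 4.3.3). The 8421 genes tested reached 1 FPKM in 3 or more libraries, with Benjamini-Hochberg adjustment over all of them and a threshold of 0.05. Values were not scaled further and no covariate was used. The fit was also run on simulated data with independent noise for each gene. Fewer genes were changed there than passed here, and no result rests on it. Ratios within a library were compared by exact permutation of the libraries. Lists were counted, not tested, and of 141 list entries 1 was not matched and 4 were matched by another symbol. The low values used for relative depth were those between 0.001 and 0.1 FPKM.

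Named were the 4 genes, the Sox family and up to 3 rising and 3 falling genes a list by adjusted p. Also named were esg, mira, Dl, N, sc and pros, neighbouring genes and the 3 genes most like each of the 4. The genes unk, sr, grh, erm, dpn, brat, dome and Stat92E and the cell type markers were named after their values were seen. The members and lists were chosen with earlier results of these data known. Promoter motifs were not analysed. Python 3.11.15 and matplotlib 3.10.9 were used for ratios and figures.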

Additional observations from a re-analysis of the deposited data

Results flagged for a closer look

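In 51 sets of 4 ScOE values that were looked at, 2 had 1 library further from the others than Dixon's limit allows, and chance alone gives about 1 in 20. The log2 ratio of Sox21a to hdc was 0.40 in ScOE 4, against -0.27 to -0.16 in the other 3 libraries; the difference from Ctrl in this ratio kept its direction without ScOE 4, at -1.26. E(spl)mbeta-HLH was at 348 FPKM in ScOE 1 and at 262 to 265 FPKM in the other ScOE libraries.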

How the results depend on the processing

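Log2 values below are ScOE minus Ctrl, and adjusted p-values are from limma. Each of the 4 genes was refitted under 21 alternatives (pseudocounts, filters, scalings, variance settings, library weights, replicate block, left-out libraries). Sox100B kept its direction and call in all 21, and Sox21a in 20, the exception being equal FPKM totals (-0.45). The sign of klu turned with upper quartile scaling (0.020), trimmed-mean scaling (0.034), quantile normalization (0.19) and equal totals (0.81), and it passed as lower with library weights (-0.62). The sign of hdc turned with equal totals (0.65) and library weights (0.14). The ratios to esg turned with mira in its place for klu (-0.026) and hdc (-0.19). With equal totals the sign also turned for Sox14 (0.45), CG13624 (0.012), Rheb (0.25), Fer1HCH (0.53), esg (0.53), mira (0.84) and N (0.45). Quantile normalization turned Fer1HCH (0.10), esg (0.0047) and mira (0.21), and upper quartile and trimmed-mean scaling turned mira (0.047 and 0.061). The cause was not tested. The number of genes called was 3280, of which 45.2% were higher; equal totals called 4734, of which 94.1% were higher.

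Leaving out 1 library at a time gave -1.41 to -1.20 for Sox21a, -1.68 to -1.45 for Sox100B, -0.46 to 0.26 for klu, -0.38 to 0.093 for hdc and -0.091 to 0.13 for mira, and 2504 to 3208 genes called. Absolute depth is unknown, and 3 against 4 libraries limit the precision.

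Libraries share numbers 1 to 3, but nothing says that a number marks a shared origin. Deviations of same-numbered libraries from their group means correlated at 0.524, -0.0406 and 0.0816 across genes. Those of unlike-numbered libraries correlated at -0.598 (Ctrl 3 with ScOE 1) to 0.461 (Ctrl 3 with ScOE 4). Deviations from a group mean cancel within the group, so these correlations are not independent of each other. With the replicate block Sox21a was at -1.31 (adjusted p of 0.00548), Sox100B at -1.45 (0.00851), klu at -0.08, hdc at -0.05 and mira at 0.068, and 2540 genes were called.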
